A study of Homo sapiens with 9 samples.

Results

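The 35 genes described here encode the folding, sensing and clearance machinery of the endoplasmic reticulum (ER): genes of the unfolded protein response (UPR) and of ER-associated degradation (ERAD). They were chosen by gene symbol, matched to the Ensembl identifiers of the count files, and make up 35 of the 58395 identifiers counted. By role they comprise 11 ER chaperones and cochaperones, 5 genes of disulfide formation, 6 stress sensors and their effectors, 11 ERAD genes and 2 subunits of the translocon. All 35 passed the filter on low counts. RNA was sequenced from MDA-MB-231, an established triple negative breast cancer cell line, grown in DMEM with serum and antibiotics. All cells were reverse transfected with an siRNA for 96 h, so the control cells carried an siRNA as well. The 3 groups were a nontargeting control siRNA (NC) and each of 2 individual siRNAs labelled as targeting SKP2 (SKP2-siRNA1 and SKP2-siRNA2), with 3 libraries in each. SKP2 encodes the F-box protein that brings substrates to the SCF ubiquitin ligase. The title of the series poses the response to SKP2 knockdown as its question, and each siRNA was compared with NC and with the other siRNA. The model is 1 cell line with transient knockdown, and the labels do not state whether libraries of a group came from separate cultures, so p-values measure the spread between these libraries, which may be technical.

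Secreted and membrane proteins enter the ER through the SEC61 translocon, fold with the help of chaperones such as BiP (HSPA5), and acquire disulfide bonds from protein disulfide isomerases that are reoxidized by ERO1 enzymes. When unfolded proteins accumulate, the membrane sensors IRE1 (ERN1), PERK (EIF2AK3) and ATF6 start the UPR. IRE1 splices XBP1 mRNA into the form that encodes an active transcription factor, PERK phosphorylates the translation factor eIF2alpha and so slows protein synthesis, and ATF6 is cleaved in the Golgi to release a transcription factor. In ERAD, misfolded glycoproteins are trimmed with the help of EDEM proteins, recognized by the lectins OS9 and ERLEC1, and passed to the ligase HRD1 (SYVN1) with its partners SEL1L, HERPUD1 and the derlins for export and destruction by the proteasome. Secretory and tumour cells rely on this machinery to keep pace with protein synthesis. Counts per gene do not separate spliced from unspliced XBP1 mRNA, and no protein was measured.

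The libraries held between 35476410 and 49855113 reads counted in genes. On the third principal component of all genes (11.6% of the variance), the NC and SKP2-siRNA2 libraries were spread out. The SKP2-siRNA1 libraries lay close together on it, at -3.49, -3.45 and -1.12. The tests below estimate the spread of a gene over all groups together, so an SE is not the spread of any single group. NC replicates 1 to 3 lay at -30.3, 6.78 and 21.2, and SKP2-siRNA2 replicates 1 to 3 at 21.7, 3.29 and -14.6. NC replicate 1 and SKP2-siRNA2 replicate 3, here called the low-end pair, were also left out together. NC replicate 3 and SKP2-siRNA2 replicate 1, at the other end, were left out only singly. With the low-end pair left out, the numbers of members called higher and lower were 11 and 8 with SKP2-siRNA1 and 9 and 14 with SKP2-siRNA2. Between the siRNAs they were 13 and 16. Calls over all genes rose as well: that fit called 8755, 8928 and 9187 of 16755 genes in the same order of comparisons. The fit of all 9 libraries called 7548, 8181 and 8365 of 16575. The corresponding counts from all 9 libraries follow below. As CPM, the counts of a gene scaled to a common library size, SKP2 itself averaged 62.1 ± 3.99 under the control siRNA, 3.58 ± 0.307 under SKP2-siRNA1 and 5.96 ± 0.236 under SKP2-siRNA2 (SD, n = 3 in each group), 17.3 and 10.4 times lower. The design text of the series names ZIP7 in place of SKP2, but its gene, SLC39A7, averaged 342, 343 and 364 CPM in the same order of groups and passed no test against NC (adjusted p = 0.936 and 0.0868). The cells carried the markers of a mesenchymal breast line, with VIM at 2734 CPM in NC and a summed level of the 6 mesenchymal markers of 6646 to 6755 CPM in NC, 6821 to 6936 with SKP2-siRNA1 and 7614 to 7841 with SKP2-siRNA2, while ESR1, PGR and FOXA1 stayed below 1 CPM in every library. Of 5 immune markers 3 stayed below 1 CPM in every library, and the summed level of the list was 1.79 to 2.16 CPM in NC, 3.37 to 4.01 with SKP2-siRNA1 and 2.55 to 2.93 with SKP2-siRNA2. Of 4 endothelial markers 3 stayed below 1 CPM in every library, and their summed level, nearly all PECAM1, was 3.99 to 4.51 CPM in NC, 8.77 to 10.3 with SKP2-siRNA1 and 3.48 to 4.49 with SKP2-siRNA2. Of the 6 luminal and epithelial markers, GATA3, CDH1 and EPCAM did not stay below 1 CPM in every library. The summed level of that list was 31.6 to 32.9 CPM in NC, 30.4 to 31.7 with SKP2-siRNA1 and 22.7 to 26.3 with SKP2-siRNA2. The part of these markers in the results was not tested.

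Promoter sequences are shown because UPR transcription factors are known to act through short defined elements, which differ among the members. The ER stress response element (ERSE) is bound by ATF6 together with NF-Y, and was searched as CCAAT and CCACG with any 9 bases between them. The related ERSE-II was searched as ATTGG and CCACG with any 1 base between them, and the UPR element (UPRE), bound by the spliced form of XBP1, as TGACGTGG, each on both strands. Promoters ran from 250 bases before to 50 bases after each RefSeq transcription start on GRCh38.p14, and 32 of the 35 members matched an entry; PDIA3, DERL1 and DERL3 did not. ERSE was found in 27 of all 35116 promoters (0.077%) and in promoters of 8 members, ERSE-II in 19 promoters (0.054%) and in 3 members, and UPRE in 256 promoters (0.729%) and in 1 member, HYOU1, where it overlaps an ERSE-II. By role, ERSE or ERSE-II stood in 7 of 11 chaperones, 2 of 4 matched disulfide genes, 1 of 6 sensors and effectors, 1 of 9 matched ERAD genes and neither translocon gene. A match describes letters in this window, not a bound site.
The promoters of HSPA5, XBP1 and HERPUD1 are printed below because each holds 1 match and the 3 genes take different roles. They run from 250 bases before the start, 5′ to 3′ on the strand of the gene, up to the start, or up to the GENCODE gene where that begins earlier (250, 222 and 156 bases). For XBP1 the first listed start is shown. The CCACG box and the CCAAT box (ATTGG in HERPUD1) of each match are in capitals.
HSPA5 (chr9:125241344-125241593, minus strand): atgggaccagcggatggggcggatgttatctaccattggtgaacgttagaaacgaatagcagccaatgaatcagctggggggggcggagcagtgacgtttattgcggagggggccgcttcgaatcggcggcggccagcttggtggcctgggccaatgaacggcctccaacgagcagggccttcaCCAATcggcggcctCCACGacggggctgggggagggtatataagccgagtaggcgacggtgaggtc
XBP1 (chr22:28800598-28800819, minus strand): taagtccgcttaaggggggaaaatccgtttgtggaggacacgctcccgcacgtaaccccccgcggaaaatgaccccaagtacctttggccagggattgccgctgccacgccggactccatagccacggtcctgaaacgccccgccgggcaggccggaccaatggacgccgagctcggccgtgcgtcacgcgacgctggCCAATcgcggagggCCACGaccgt
HERPUD1 (chr16:56931892-56932047, plus strand): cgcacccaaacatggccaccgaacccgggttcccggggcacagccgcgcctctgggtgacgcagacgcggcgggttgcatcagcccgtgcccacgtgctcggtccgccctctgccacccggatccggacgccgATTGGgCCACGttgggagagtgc
The match in HSPA5 lay at bases -66 to -48 from the start, counted with the start as 0, that in XBP1 at -52 to -34 and that in HERPUD1 at -117 to -107. To compare the spacer between the boxes, the other matches are given alone; those that begin with CGTGG lie on the strand opposite to the gene.
HSP90B1, bases -194 to -176: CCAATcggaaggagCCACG
HSP90B1, bases -89 to -71: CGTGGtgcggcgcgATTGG
CALR, bases -225 to -207: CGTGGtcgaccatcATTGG
CANX, bases -151 to -133 of its first listed start: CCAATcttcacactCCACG
CRELD2, bases -80 to -62: CGTGGcgaactcggATTGG
PDIA6, bases -86 to -68 of its second listed start: CCAATgagccgcagCCACG
ERO1B, bases -243 to -225: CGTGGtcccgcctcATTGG
SDF2L1, bases -188 to -178: CGTGGaCCAAT
HYOU1, bases -185 to -175: CGTGGtCCAAT
HYOU1, bases -79 to -69: CGTGGtCCAAT
The chaperone genes thus hold most of the elements, and the SEL1L, EDEM and DERL2 promoters of the ERAD group hold none of the 3 in this window.

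**Figure D1:**
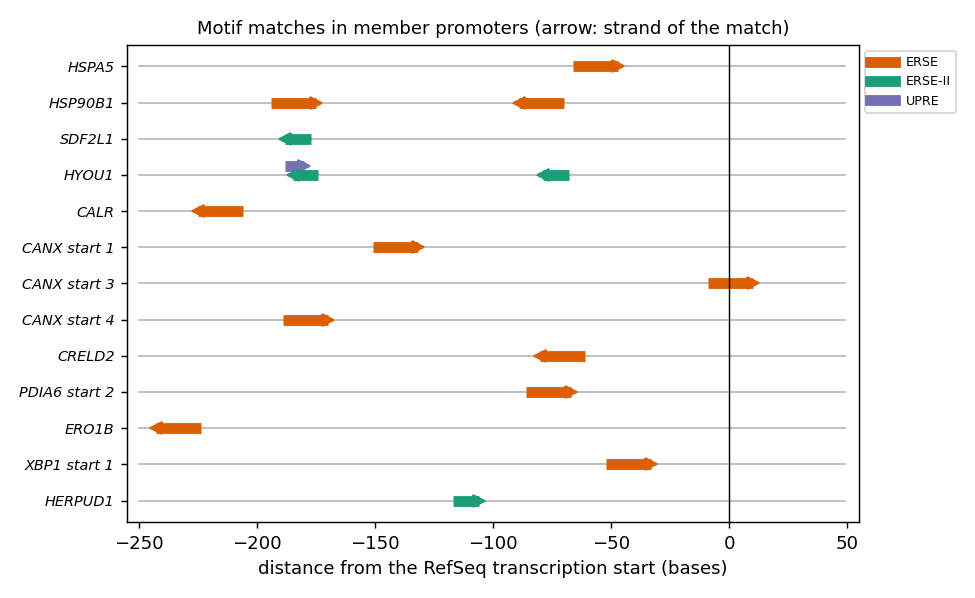
Matches to ERSE, ERSE-II and UPRE in the promoters of 11 members, drawn by distance in bases from the RefSeq transcription start (x axis); arrows give the strand of the match relative to the gene. The HSPA5 and XBP1 matches lie closest to the start without crossing it, and HSP90B1 and HYOU1 hold more than 1 match.

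At the level of RNA the members spanned a wide range. Per kilobase of merged exon, the mean level in NC ran from 0.134 CPM per kb for DERL3, a derlin, to 508 for CALR, the calcium-binding lectin chaperone calreticulin. CALR, HSPA5 (214 CPM per kb), CANX (207) and HSP90B1 (200.2) all lay above the 99th percentile of genes tested on this scale. The sensors were lower, with ATF6 at 16.7, EIF2AK3 at 5.27 and ERN1 at 3.03 CPM per kb.

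Both siRNAs moved many of the members, but in both directions and mostly by small amounts. With SKP2-siRNA1, 18 of the 35 passed the test against NC (51.4%, against 45.5% of all 16575 genes tested), 11 of them higher and 7 lower, where 25% and 20.5% of all genes were called in those directions. With SKP2-siRNA2, 20 passed (57.1%, against 49.4% of all genes), 9 higher and 11 lower, where 25.2% and 24.1% of all genes were. A gene is called here when its p from edgeR's quasi-likelihood test, adjusted by the Benjamini-Hochberg method over all genes tested, is under 0.05; every adjusted p below is of this kind, and fold changes are log2 with the standard error (SE) of the fit. The median change of the members was 0.07 with SKP2-siRNA1 and -0.0036 with SKP2-siRNA2, against 0.02 and 0.03 over all genes tested. Their median absolute change was 0.18 and 0.20 on the log2 scale, against 0.26 and 0.29 over all genes. The members were thus called about as often as other genes, and their typical change was no larger. Only DERL3 with SKP2-siRNA1 and WFS1 with SKP2-siRNA2 were called with a change of at least 2-fold. Both comparisons share the NC libraries, so their values are set side by side and not correlated. In RNA from whole cultures, fewer cells with a transcript and less of it per cell cannot be told apart.

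**Figure D2:**
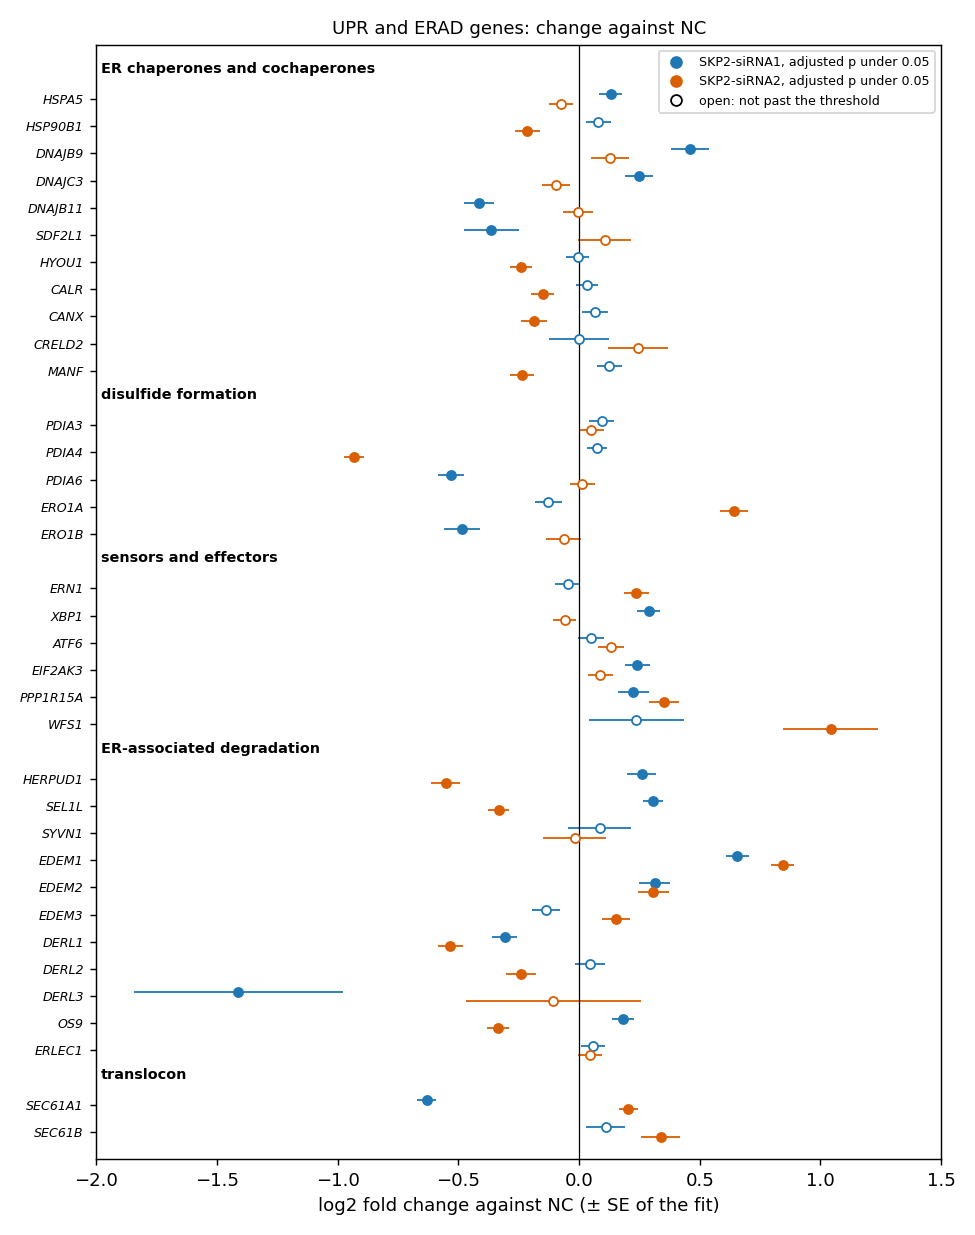
Log2 fold change against NC (x axis, ± SE of the fit) of the 35 members in 5 role groups (y axis); filled points passed an adjusted p of 0.05 and open points did not. The chaperones CALR, CANX, HSP90B1, HYOU1 and MANF have filled points below 0 for SKP2-siRNA2 alone, and HERPUD1, SEL1L, OS9 and SEC61A1 have filled points on opposite sides.

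**Figure D3:**
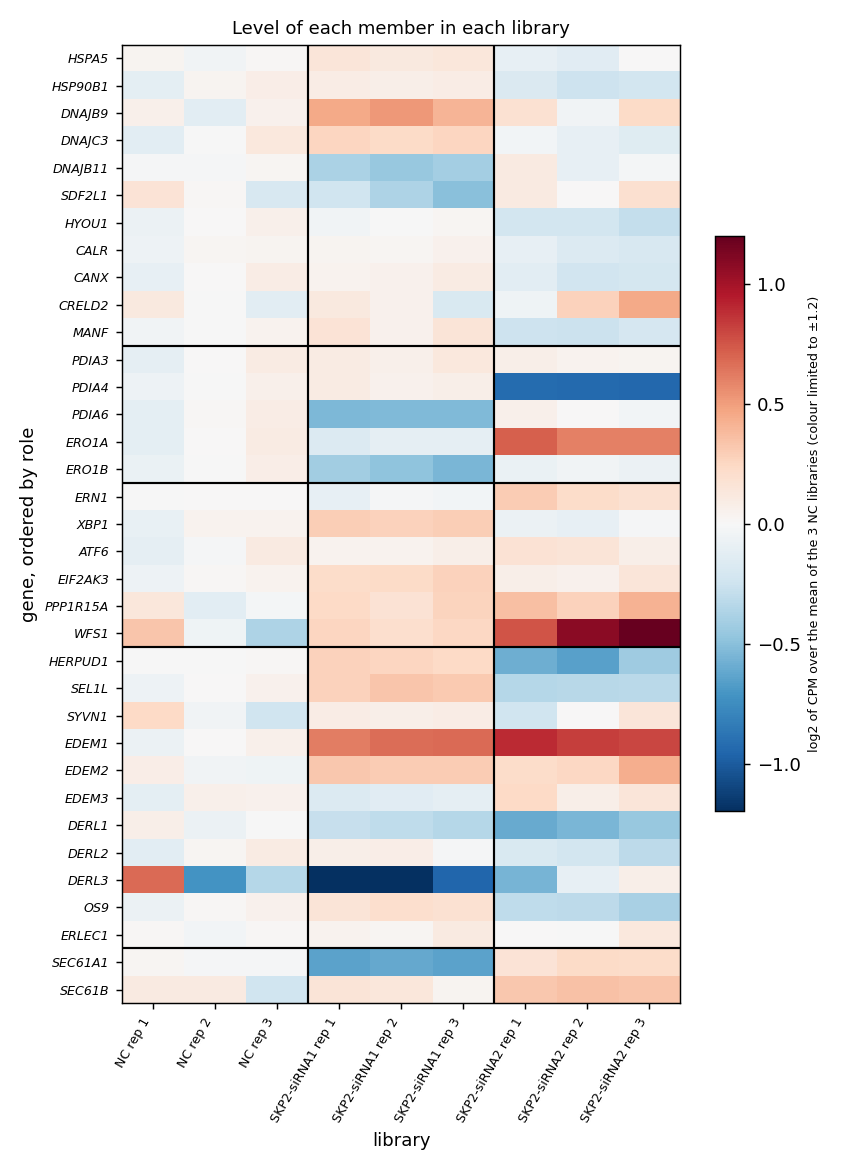
Log2 of the CPM of each member (rows, in order of role) in each of the 9 libraries (columns) over its mean in the 3 NC libraries; red is higher and blue lower, with the colour limited to ±1.2. EDEM1 is red in all 6 SKP2 siRNA libraries, PDIA4 is deep blue in the 3 SKP2-siRNA2 libraries alone, and WFS1 and SYVN1 differ among the NC libraries.

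Among the sensors and effectors, 3 of 6 rose with each siRNA and none was called lower, but the genes were not the same. SKP2-siRNA1 raised XBP1, EIF2AK3 and PPP1R15A, and SKP2-siRNA2 raised ERN1, PPP1R15A and WFS1. The median change of the 6 was 0.23 and 0.18. ERN1 (ENSG00000178607, chr17:64039142-64130819), which encodes the sensor kinase and RNase IRE1, stood at 32.7, 33.0 and 33.0 CPM in NC, 30.7, 32.6 and 32.2 under SKP2-siRNA1, and 40.7, 38.3 and 37.4 under SKP2-siRNA2. All 3 SKP2-siRNA2 libraries lay above the rest, and the 3 SKP2-siRNA1 libraries lay just below the NC range. The change was 0.24 (SE 0.05, adjusted p = 0.00179) with SKP2-siRNA2 and -0.05 (SE 0.05, adjusted p = 0.498) with SKP2-siRNA1. XBP1 (ENSG00000100219, chr22:28794555-28800597), the substrate of IRE1, showed the other pattern, at 68.3, 74.6 and 74.9 CPM in NC, 89.3, 87.8 and 89.0 under SKP2-siRNA1, and 69.3, 67.7 and 71.8 under SKP2-siRNA2. Here the 3 SKP2-siRNA1 libraries lay above all others and SKP2-siRNA2 overlapped NC, with changes of 0.29 (SE 0.05, adjusted p = 0.000239) and -0.06 (SE 0.05, adjusted p = 0.32). Without NC replicate 1, XBP1 was called lower with SKP2-siRNA2, at -0.11 (adjusted p = 0.0296, range over 17 alternatives 0.0205 to 0.747).

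EIF2AK3 (ENSG00000172071, chr2:88556741-88627576), which encodes the eIF2alpha kinase PERK, stood at 27.5, 28.96 and 29.5 CPM in NC, 33.3, 33.6 and 34.7 under SKP2-siRNA1, and 30.0, 29.7 and 31.7 under SKP2-siRNA2. The SKP2-siRNA1 libraries were the highest and the SKP2-siRNA2 libraries lay between them and NC, and the change was 0.24 (SE 0.05, adjusted p = 0.00207) with SKP2-siRNA1 and 0.09 (SE 0.05, adjusted p = 0.191) with SKP2-siRNA2. PPP1R15A (ENSG00000087074, chr19:48872392-48876057), whose product GADD34 directs the phosphatase that reverses the action of PERK on eIF2alpha, stood at 121, 101 and 108 CPM in NC, 129.7, 124 and 132 under SKP2-siRNA1, and 141, 133 and 147 under SKP2-siRNA2. It rose with both, by 0.23 (SE 0.06, adjusted p = 0.0095) and 0.35 (SE 0.06, adjusted p = 0.000373), and neither knockdown group overlapped NC. With SKP2-siRNA1 the call on PPP1R15A was lost without NC replicate 2 (0.17, adjusted p = 0.0578), without SKP2-siRNA2 replicate 1 (0.19, adjusted p = 0.0963) and when only NC and SKP2-siRNA1 were fitted (0.15, adjusted p = 0.201, range over 17 alternatives 3.49e-05 to 0.201). ATF6 (ENSG00000118217, chr1:161766294-161964070), the sensor that is itself a transcription factor precursor, stood at 122, 131 and 142 CPM in NC, 135, 136 and 138 under SKP2-siRNA1, and 148, 146 and 138 under SKP2-siRNA2. Its groups overlapped, and it was called in neither comparison, at 0.05 (SE 0.05, adjusted p = 0.48) and 0.13 (SE 0.05, adjusted p = 0.0576). With SKP2-siRNA2, ATF6 passed the threshold without NC replicate 3 (0.19, adjusted p = 0.00483) or without SKP2-siRNA2 replicate 3 (0.16, adjusted p = 0.0415, range over 17 alternatives 0.00483 to 0.254).

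WFS1 (ENSG00000109501, chr4:6269849-6303265), which encodes wolframin, an ER membrane protein that restrains ATF6 signalling, had the largest rise of any member, at 76.7, 58.6 and 47.1 CPM in NC, 72.6, 70.0 and 72.2 under SKP2-siRNA1, and 103, 129 and 144 under SKP2-siRNA2. The lowest SKP2-siRNA2 library lay above the highest NC library, and the change was 1.04 (SE 0.20, adjusted p = 0.00409), a 2.06-fold difference. The NC libraries differed among themselves, NC replicate 1 being the highest, and SKP2-siRNA2 replicate 3 was the highest of its group. These are the low-end pair of the third principal component. With this pair left out the change was 1.13 (adjusted p = 0.00253, range over 17 alternatives 2.33e-06 to 0.0218). With SKP2-siRNA1 all 3 values fell inside the NC range, at 0.24 (SE 0.20, adjusted p = 0.375).

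Of the 11 chaperones and cochaperones, 5 (45.5%) were called with each siRNA and 6 were not. The shares of all genes tested were 45.5% with SKP2-siRNA1 and 49.4% with SKP2-siRNA2. With SKP2-siRNA1, 3 rose (HSPA5, DNAJB9 and DNAJC3) and 2 fell (DNAJB11 and SDF2L1), with a median of 0.07. With SKP2-siRNA2 none was called higher and 5 fell, with a median of -0.09. HSPA5 (ENSG00000044574, chr9:125234853-125241330), which encodes BiP, the ER member of the HSP70 family and a standard readout of ER stress, stood at 855, 809.6 and 842 CPM in NC, 922, 905 and 919 under SKP2-siRNA1, and 782, 759 and 838 under SKP2-siRNA2. The SKP2-siRNA1 libraries were the highest by a small margin, and SKP2-siRNA2 replicate 3 lay within the NC range while the other two lay below it. The change was 0.13 (SE 0.05, adjusted p = 0.0397) with SKP2-siRNA1 and -0.08 (SE 0.05, adjusted p = 0.218) with SKP2-siRNA2. The call with SKP2-siRNA1 was lost in 10 of 17 alternative fits. Among them, leaving out NC replicate 2 gave 0.11 (adjusted p = 0.161, range over 17 alternatives 0.0043 to 0.284). Leaving out SKP2-siRNA1 replicates 1, 2 or 3 gave 0.13, 0.14 and 0.13, and leaving out SKP2-siRNA2 replicate 1 gave 0.09. With SKP2-siRNA2, HSPA5 was called lower without the low-end pair, at -0.10 (adjusted p = 0.0434, range over 17 alternatives 0.0434 to 0.56).

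DNAJB9 (ENSG00000128590, chr7:108569568-108574850), an ER DnaJ cochaperone of BiP, stood at 23.0, 20.2 and 22.8 CPM in NC, 30.0, 31.5 and 29.2 under SKP2-siRNA1, and 24.9, 21.3 and 25.8 under SKP2-siRNA2. All 3 SKP2-siRNA1 libraries lay above all others, a change of 0.46 (SE 0.08, adjusted p = 0.000303), against 0.13 (adjusted p = 0.199) with SKP2-siRNA2. Without SKP2-siRNA2 replicate 2, DNAJB9 was called higher with that siRNA too, at 0.21 (adjusted p = 0.0429, range over 17 alternatives 0.0429 to 0.648). DNAJC3, another cochaperone of BiP, rose by 0.25 (SE 0.06, adjusted p = 0.00331) with SKP2-siRNA1 and stood at -0.09 (adjusted p = 0.205) with SKP2-siRNA2. With SKP2-siRNA2, DNAJC3 was called lower without NC replicate 1 (-0.16, adjusted p = 0.0108), SKP2-siRNA2 replicate 1 (-0.17, adjusted p = 0.0203) or the low-end pair (-0.12, adjusted p = 0.0282). Its adjusted p over the 17 alternatives ran from 0.0108 to 0.653. The cochaperone DNAJB11 (ENSG00000090520, chr3:186567403-186585800) fell with SKP2-siRNA1, at 26.6, 26.6 and 27.3 CPM in NC, 20.6, 19.6 and 20.2 under SKP2-siRNA1, and 28.98, 25.0 and 26.4 under SKP2-siRNA2. Its SKP2-siRNA1 libraries lay below all others, -0.41 (SE 0.06, adjusted p = 0.000108), and its SKP2-siRNA2 libraries bracketed NC, -0.0036 (SE 0.06, adjusted p = 0.969). SDF2L1 (ENSG00000128228, chr22:21642261-21644298), whose product binds DNAJB11 in the ER, stood at 5.45, 4.91 and 4.25 CPM in NC, 4.13, 3.77 and 3.45 under SKP2-siRNA1, and 5.25, 4.87 and 5.55 under SKP2-siRNA2. It fell by 0.36 on the log2 scale (SE 0.11, adjusted p = 0.0184) with SKP2-siRNA1, where every library lay below the NC range. Its call was lost without NC replicate 1 (-0.29), NC replicate 2 (-0.36), SKP2-siRNA1 replicate 2 (-0.36) or SKP2-siRNA1 replicate 3 (-0.30), with adjusted p between 0.0513 and 0.0877, against 0.0057 to 0.0877 over all 17 alternatives.

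The 5 chaperone genes that fell with SKP2-siRNA2 did so by similar amounts. They were HYOU1, a nucleotide exchange factor of BiP (-0.24, SE 0.05), MANF, a secreted ER stress protein that binds BiP (-0.24, SE 0.05), HSP90B1, the ER member of the HSP90 family (-0.21, SE 0.05), and the lectin chaperones CANX (-0.19, SE 0.05) and CALR (-0.15, SE 0.05). Each of them was below NC in the mean of SKP2-siRNA2 and passed no test with SKP2-siRNA1, where the changes ran from -0.01 for HYOU1 to 0.13 for MANF. MANF passed with SKP2-siRNA1 without NC replicate 3 (0.15, adjusted p = 0.0372) or SKP2-siRNA1 replicate 2 (0.16, adjusted p = 0.0464), and its adjusted p over the 17 alternatives ran from 0.026 to 0.307. Leaving out SKP2-siRNA2 replicate 2 removed the calls on CANX (-0.17, adjusted p = 0.0573, range over 17 alternatives 0.000279 to 0.0573) and CALR (-0.15, adjusted p = 0.0597, range over 17 alternatives 0.000572 to 0.0681), which left 3 chaperones lower and, through DNAJB9, 1 higher. The call on CALR was also lost without NC replicate 2 (-0.14) or SKP2-siRNA2 replicate 3 (-0.13). CRELD2, an ER stress-inducible disulfide isomerase-like protein, was called in neither comparison, at 10.7, 10.2 and 8.72 CPM with SKP2-siRNA1 against 10.8, 9.84 and 9.08 CPM in NC and with a change of 0.24 with SKP2-siRNA2. It passed with SKP2-siRNA2 only without SKP2-siRNA2 replicate 1 (0.32, adjusted p = 0.0473) or with no filter on low counts (0.25, adjusted p = 0.0246, range over 17 alternatives 0.0246 to 0.439).

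In disulfide formation, each siRNA changed different genes. The median absolute change of the 5 was 0.13 and 0.06 on the log2 scale, against 0.26 and 0.29 over all genes. SKP2-siRNA1 lowered 2 of 5 (PDIA6 and ERO1B) and raised none, while SKP2-siRNA2 lowered PDIA4 and raised ERO1A. That is 40.0% of the 5 with each siRNA, beside 45.5% and 49.4% of all genes tested. PDIA4 (ENSG00000155660, chr7:149003062-149028641), which encodes the disulfide isomerase ERp72, stood at 302, 313 and 327 CPM in NC, 335, 326 and 331 under SKP2-siRNA1, and 166, 164 and 163 under SKP2-siRNA2. The SKP2-siRNA2 libraries lay close together and far below every other library, 1.91 times lower (log2 -0.93, SE 0.04, adjusted p = 1.75e-09). With SKP2-siRNA1 the change in PDIA4 was 0.07 (SE 0.04, adjusted p = 0.17). PDIA6 (ENSG00000143870, chr2:10783391-10837977), which encodes the disulfide isomerase P5, was the reverse, at 267, 293 and 308 CPM in NC, 199.7, 201 and 200.2 under SKP2-siRNA1, and 302, 289.7 and 284 under SKP2-siRNA2. Its SKP2-siRNA1 libraries lay below all others (-0.53, SE 0.05, adjusted p = 2.45e-06) and its SKP2-siRNA2 libraries lay within the NC range (0.01, SE 0.05, adjusted p = 0.868). ERO1A (ENSG00000197930, chr14:52639916-52695900), the oxidase that reoxidizes disulfide isomerases and that is also a hypoxia-responsive gene, stood at 306, 333 and 354 CPM in NC, 295, 306 and 307 under SKP2-siRNA1, and 544, 502 and 502 under SKP2-siRNA2. All SKP2-siRNA2 libraries lay above all others, a rise of 0.64 (SE 0.06, adjusted p = 7.78e-07), and the SKP2-siRNA1 value was -0.13 (SE 0.06, adjusted p = 0.0827). That SKP2-siRNA1 value passed the threshold without NC replicate 1 (-0.19, adjusted p = 0.00443) or SKP2-siRNA2 replicate 1 (-0.16, adjusted p = 0.00582, range over 17 alternatives 0.00108 to 0.252). Its paralog ERO1B fell with SKP2-siRNA1, by 0.49 on the log2 scale (SE 0.07, adjusted p = 0.00012), and was at -0.06 with SKP2-siRNA2. PDIA3, the isomerase that works with calnexin and calreticulin, was called in neither comparison, at 0.09 and 0.05, and passed with SKP2-siRNA1 without NC replicate 3 (0.14, adjusted p = 0.0193, range over 17 alternatives 0.0193 to 0.599).

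In ERAD, SKP2-siRNA1 raised 5 of 11 genes and lowered 2, and SKP2-siRNA2 raised 3 and lowered 5, with medians of 0.08 and -0.11. In either direction these are 63.6% and 72.7% of the 11, beside 45.5% and 49.4% of all genes tested. EDEM1 (ENSG00000134109, chr3:5187646-5219957), whose product routes misfolded glycoproteins to degradation, rose with both, at 106, 112 and 117 CPM in NC, 170.4, 178 and 179 under SKP2-siRNA1, and 208, 198 and 195 under SKP2-siRNA2. The 3 groups did not overlap, with SKP2-siRNA2 the highest, and the changes were 0.66 (SE 0.05, adjusted p = 1.42e-07) and 0.84 (SE 0.05, adjusted p = 1.15e-08). EDEM2, which carries out the first mannose trimming, rose by 0.31 and 0.31 (SE 0.06 and 0.06). EDEM3 stood at -0.14 (adjusted p = 0.0679) and 0.15 (adjusted p = 0.0417), and its call with SKP2-siRNA2 was lost in 12 of 17 alternative fits, down to 0.07 without SKP2-siRNA2 replicate 1 and 0.09 without NC replicate 1. It was also lost without SKP2-siRNA2 replicate 3 (0.15) and without any 1 of the SKP2-siRNA1 libraries (0.15, 0.15 and 0.15). With SKP2-siRNA1, EDEM3 was called lower without NC replicate 1 (-0.21, adjusted p = 0.00368) or SKP2-siRNA2 replicate 1 (-0.17, adjusted p = 0.00569, range over 17 alternatives 0.00282 to 0.231).

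HERPUD1 (ENSG00000051108, chr16:56932048-56944863), a ubiquitin-like ER membrane protein that is strongly ER stress-inducible and part of the HRD1 complex, moved in opposite directions, at 30.9, 31.1 and 31.4 CPM in NC, 37.8, 37.3 and 36.7 under SKP2-siRNA1, and 20.7, 19.8 and 23.1 under SKP2-siRNA2. The NC libraries were close together, every SKP2-siRNA1 library lay above them and every SKP2-siRNA2 library below them. The changes were 0.26 (SE 0.06, adjusted p = 0.003) and -0.55 (SE 0.06, adjusted p = 5.81e-06). Its partners SEL1L and OS9 were singled out after their values were seen, because they split in the same way. SEL1L (ENSG00000071537, chr14:81471549-81533861), the adaptor that stabilizes HRD1, stood at 202, 211 and 219 CPM in NC, 255, 265 and 261 under SKP2-siRNA1, and 166, 167 and 168 under SKP2-siRNA2. OS9 (ENSG00000135506, chr12:57693955-57721557), the lectin that reads trimmed glycans, stood at 129, 137 and 141 CPM in NC, 152, 156 and 154 under SKP2-siRNA1, and 110.1, 109 and 104 under SKP2-siRNA2. For both, SKP2-siRNA1 lay above NC and SKP2-siRNA2 below it without overlap, with changes of 0.31 and -0.33 for SEL1L (SE 0.04 and 0.04) and 0.18 and -0.33 for OS9 (SE 0.05 and 0.05). ERLEC1, the other lectin of the complex, was called in neither comparison (0.06 and 0.04, SE 0.05 and 0.05). The ligase gene SYVN1 was called in neither (0.08 and -0.02, SE 0.13 and 0.13), and its NC libraries ranged from 53.6 CPM in replicate 3 to 74.5 CPM in replicate 1. SYVN1 shares 7.24% of its exon bases with FAU and 6.48% with MRPL49.

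The derlins, ER membrane proteins that help export substrates, did not move as a set. DERL1 fell with both siRNAs, by 0.31 and 0.53 on the log2 scale (SE 0.05 and 0.05, adjusted p = 0.000278 and 1.85e-06). DERL2 fell with SKP2-siRNA2 (-0.24, SE 0.06, adjusted p = 0.00556) and stood at 0.05 with SKP2-siRNA1. DERL3 (ENSG00000099958, chr22:23834503-23839128) was the least abundant member, with raw counts of 29, 14 and 19 in NC replicates 1 to 3, 6, 5 and 13 with SKP2-siRNA1 and 14, 21 and 25 with SKP2-siRNA2. The SKP2-siRNA1 libraries were the lowest in CPM, at 0.142, 0.128 and 0.264, against 0.815, 0.309 and 0.402 in NC and 0.345, 0.476 and 0.536 with SKP2-siRNA2. The change of -1.41 (SE 0.43, adjusted p = 0.0169) was not called without NC replicate 1 (-0.97, adjusted p = 0.0618, range over 16 alternatives 0.000819 to 0.0618), SKP2-siRNA1 replicate 1 (-1.27) or SKP2-siRNA1 replicate 2 (-1.24). DERL3 did not pass the alternative filter of 1 CPM in at least 3 libraries and has no value there. Of the exon bases of DERL3, 77.002% lie over SMARCB1 on the other strand, and whether counting used the strand is not given in the sources used here. Reads assigned to several genes were set aside in the files, so without strand the reads over SMARCB1 would be missing from the counts of DERL3.

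Both translocon genes rose with SKP2-siRNA2, where 25.2% of all genes tested were called higher. SEC61A1 (ENSG00000058262, chr3:128051641-128071683), the channel-forming subunit, stood at 323, 316 and 316 CPM in NC, 205, 208 and 204 under SKP2-siRNA1, and 356, 373 and 372 under SKP2-siRNA2. The 3 groups were fully separate, with SKP2-siRNA1 the lowest and SKP2-siRNA2 the highest, and the changes were -0.63 (SE 0.04, adjusted p = 3.77e-08) and 0.20 (SE 0.04, adjusted p = 0.000783). SEC61B (ENSG00000106803, chr9:99222064-99230615), the small tail-anchored subunit, stood at 83.3, 83.5 and 65.7 CPM in NC, 86.3, 85.3 and 79.4 under SKP2-siRNA1, and 97.0, 99.2 and 97.9 under SKP2-siRNA2. NC replicate 3 was low, all SKP2-siRNA2 libraries lay above the other groups, and SKP2-siRNA1 overlapped NC. The changes were 0.11 (SE 0.08, adjusted p = 0.302) and 0.34 (SE 0.08, adjusted p = 0.00466), the second of which was lost without SKP2-siRNA2 replicate 1 (0.30, adjusted p = 0.0859, range over 17 alternatives 7.30e-10 to 0.0859).

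**Figure D4:**
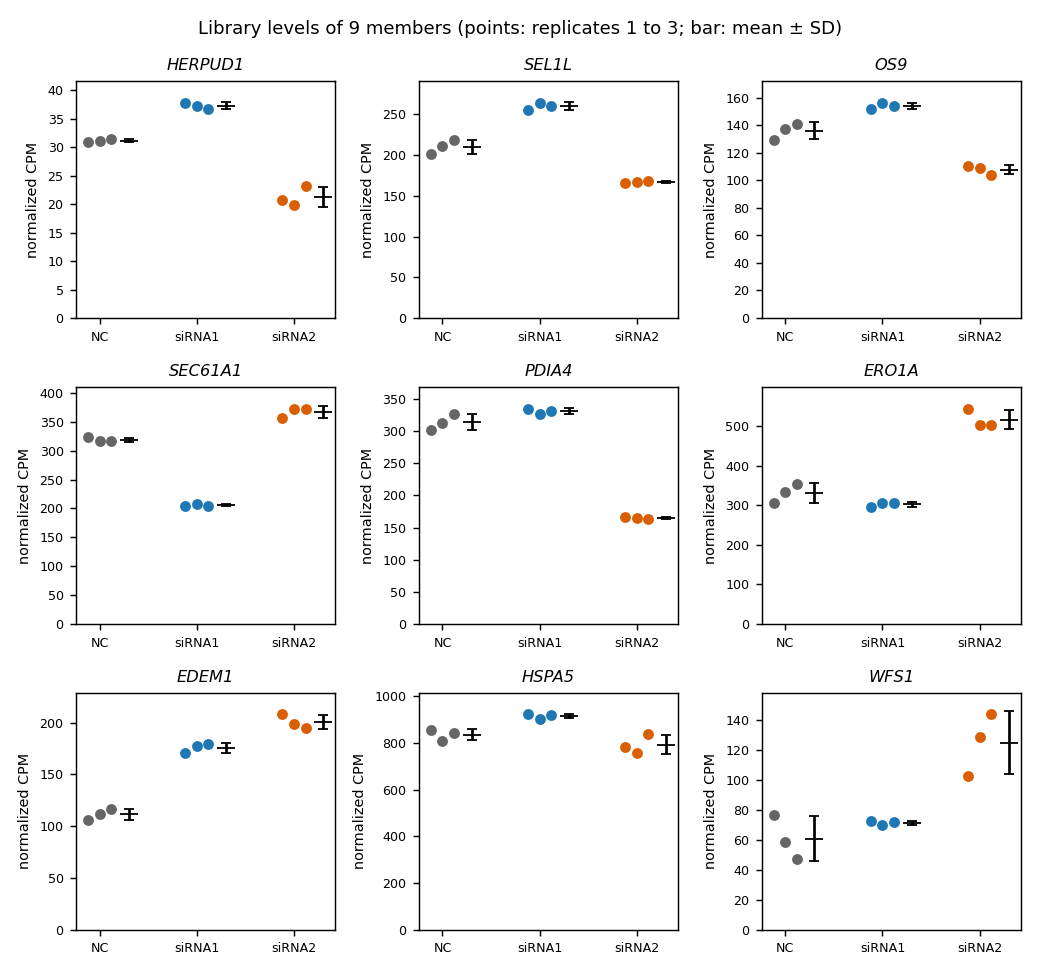
CPM (y axis) of 9 members in each library of NC, SKP2-siRNA1 and SKP2-siRNA2 (points: replicates 1 to 3, left to right; bars: mean ± SD, n = 3). SKP2-siRNA1 and SKP2-siRNA2 lie on opposite sides of NC for HERPUD1, SEL1L, OS9 and SEC61A1, PDIA4 and ERO1A move with SKP2-siRNA2 alone, and EDEM1 is above NC with both.

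Tested directly, the siRNAs differed from each other in more members than either differed from NC. Between them, 28 of 35 members were called (80.0%, against 50.5% of all genes tested), 12 higher and 16 lower with SKP2-siRNA2 than with SKP2-siRNA1, where 25.2% and 25.3% of all genes were called in those directions. The median absolute difference was 0.29, against 0.30 over all genes, so the typical difference was no larger than elsewhere. The SE of most members was near 0.05, against a median of 0.085 over all genes tested. The part of this precision in the share called was not tested. Of the chaperones, 8 of 11 were lower and 2 higher with SKP2-siRNA2 (median -0.23), the exception being CRELD2 (0.24, SE 0.12). MANF (-0.36), DNAJC3 (-0.34), DNAJB9 (-0.33) and HSP90B1 (-0.29) differed the most among those lower, while HSPA5 was at -0.21 (SE 0.05, adjusted p = 0.0029). DNAJB11 and SDF2L1 were higher with SKP2-siRNA2, by 0.41 and 0.47. In disulfide formation, PDIA4 was lower (-1.01, SE 0.04) and ERO1A, PDIA6 and ERO1B higher (0.77, 0.54 and 0.42). Among the sensors and effectors, ERN1 (0.28, SE 0.05) and WFS1 (0.80, SE 0.19) were higher and XBP1 (-0.35, SE 0.05) and EIF2AK3 (-0.15, SE 0.05) lower, so the gene of the IRE1 sensor and the gene of its substrate differed in opposite directions. The EIF2AK3 difference was not called without SKP2-siRNA1 replicate 1 (-0.17), replicate 2 (-0.16) or replicate 3 (-0.14), or without SKP2-siRNA2 replicate 2 (-0.14).

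In ERAD, HERPUD1 (-0.81, SE 0.06, adjusted p = 1.46e-07), SEL1L (-0.64, SE 0.04, adjusted p = 4.85e-08) and OS9 (-0.51, SE 0.05, adjusted p = 7.35e-07) were lower with SKP2-siRNA2, as were DERL2 (-0.29) and DERL1 (-0.23). EDEM3 (0.29) and EDEM1 (0.19) were higher, and DERL3 (1.30, SE 0.44) was called higher but not without SKP2-siRNA1 replicate 1 (1.156) or replicate 2 (1.13), or SKP2-siRNA2 replicate 2 (1.27) or replicate 3 (1.163). SEC61A1 differed by 0.84 (SE 0.04, adjusted p = 2.27e-09). The SEC61B difference of 0.23 (adjusted p = 0.0348) was lost in 10 of 17 alternative fits, among them without NC replicate 1 (0.23) and without any 1 library of either siRNA (from 0.19 to 0.25). The 7 members not called were CRELD2, PDIA3, ATF6, PPP1R15A, SYVN1, EDEM2 and ERLEC1. HERPUD1, SEL1L, OS9 and SEC61A1 were the 4 of 35 members called on opposite sides of NC with the 2 siRNAs, as were 6.64% of all genes tested, and both comparisons use the same NC libraries.

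**Figure D5:**
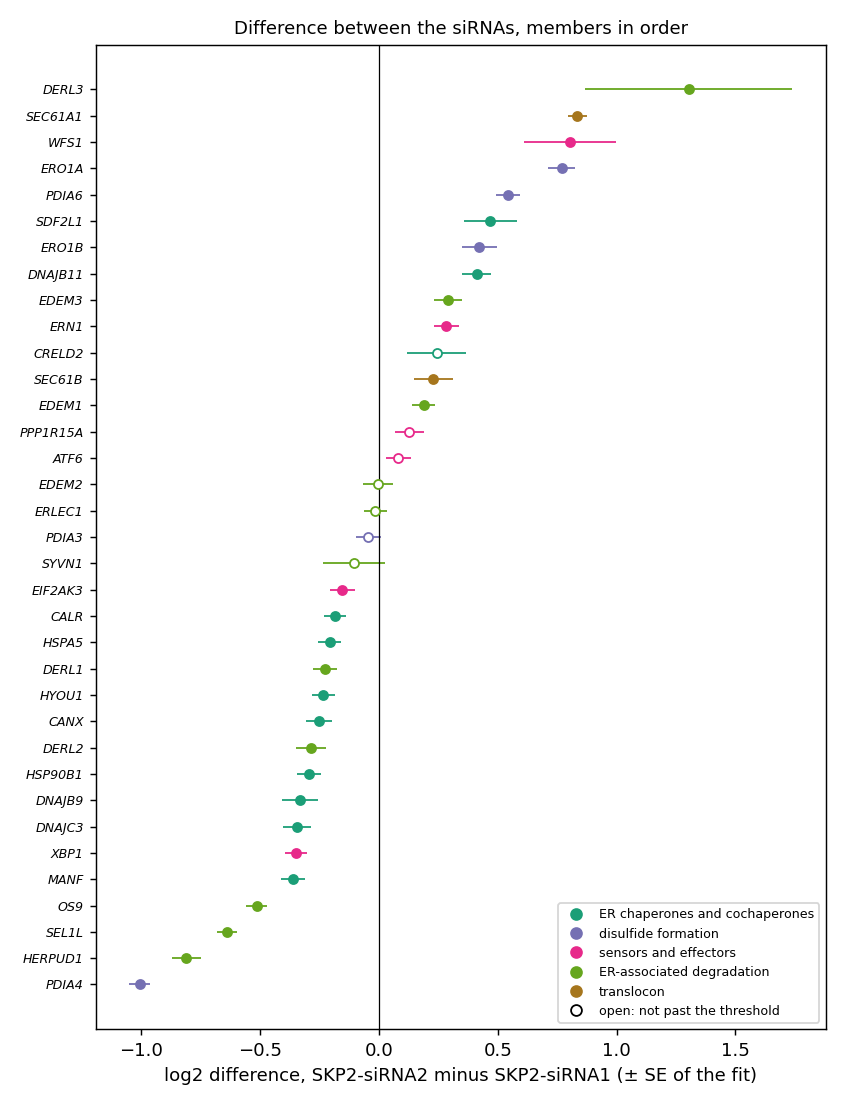
Log2 difference between SKP2-siRNA2 and SKP2-siRNA1 (x axis, ± SE of the fit) for the 35 members in order of size (y axis), coloured by role; open points did not pass an adjusted p of 0.05. PDIA4, HERPUD1, SEL1L and OS9 are at the low end, SEC61A1, WFS1 and ERO1A near the high end, and 8 of the 11 chaperones are below 0 with filled points.

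The members that hold ERSE or ERSE-II in the sequences printed above, 11 in all, were compared with the 21 matched members that hold neither. With SKP2-siRNA1, 3 of the 11 were higher and 3 lower, with a median of 0.03, and 8 of the 21 were higher and 2 lower, with a median of 0.11. With SKP2-siRNA2, none of the 11 was higher and 5 were lower, with a median of -0.08, and 9 of the 21 were higher and 5 lower, with a median of 0.13. Between the siRNAs, 7 of the 11 were lower and 3 higher with SKP2-siRNA2, with a median of -0.21, and 8 of the 21 were lower and 8 higher, with a median of -0.01. Of all genes tested, 25.3% were lower and 25.2% higher in that comparison. Against NC, 25% of all genes were higher and 20.5% lower with SKP2-siRNA1, and 25.2% higher and 24.1% lower with SKP2-siRNA2. Whether the counts by element differ from these shares was not tested. Of the 11 holders, 7 are chaperones. The 5 lower with SKP2-siRNA2 were the chaperones HSP90B1, HYOU1, CALR and CANX, described above, and HERPUD1. Element and role cannot be told apart in these counts. The 3 printed promoters belong to genes that did not move alike: HSPA5 stood at 0.13 and -0.08, XBP1 at 0.29 and -0.06, and HERPUD1 at 0.26 and -0.55 with SKP2-siRNA1 and SKP2-siRNA2. The ERSE holders PDIA6 and ERO1B were the members lowest with SKP2-siRNA1 among the 11, at -0.53 and -0.49. Outside the members, 33 genes hold either element, of which 20 were tested: 5 were higher and 6 lower with SKP2-siRNA1, 5 higher and 4 lower with SKP2-siRNA2, and 9 higher and 3 lower between the siRNAs. Their medians were -0.01, 0.06 and 0.17. Without SKP2-siRNA2 replicate 2, 3 of the 11 members with an element were lower with SKP2-siRNA2 in place of 5.

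Other genes of the same pathways were read from 7 further lists with 107 genes, of which 106 were tested. With SKP2-siRNA1, 39 were higher and 22 lower, with SKP2-siRNA2 33 and 29, and between the siRNAs 33 and 33. In either direction these are 57.5%, 58.5% and 62.3% of the 106, beside 45.5%, 49.4% and 50.5% of all genes tested. Their medians, 0.07, 0.02 and 0.0042, lay near those of all genes, 0.02, 0.03 and 0.03. Among 11 tested genes that process or relay the sensors' signals, 5 rose and 3 fell with SKP2-siRNA1 (72.7% called). With SKP2-siRNA2, 3 rose and 4 fell (63.6% called). MBTPS2, the site-2 protease that performs the second cut of ATF6 in the Golgi, stood at 26.7, 30.0 and 31.7 CPM in NC, 38.5, 36.8 and 36.7 under SKP2-siRNA1, and 12.3, 13.9 and 13.6 under SKP2-siRNA2. All SKP2-siRNA2 libraries lay below NC and all SKP2-siRNA1 libraries above it, with changes of 0.34 (SE 0.07, adjusted p = 0.00123) and -1.15 (SE 0.07, adjusted p = 2.88e-08). MBTPS1, the site-1 protease, singled out after its values were seen, changed by 0.17 and -0.20 (SE 0.04 and 0.04), both called. The stress kinase gene MAP3K5 (ASK1), which acts below IRE1, rose by 0.24 and 0.58. TRAF2, the adaptor between IRE1 and ASK1, fell by 0.57 on the log2 scale with SKP2-siRNA1 and stood at 0.01 with SKP2-siRNA2.

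Of 8 outputs of the PERK and ATF4 arm, none rose and 2 fell with SKP2-siRNA1, and 1 rose and 1 fell with SKP2-siRNA2. That is 25.0% of the 8 with each siRNA, beside 45.5% and 49.4% of all genes tested. ATF4 stood at -0.47 (adjusted p = 0.0503) and -0.17 (adjusted p = 0.414), and DDIT3, which encodes the stress transcription factor CHOP, at -0.17 (adjusted p = 0.155) and 0.16 (adjusted p = 0.158); these genes were added after their values were seen, as the best known of the arm. ASNS, asparagine synthetase, was low at 1.32 CPM in NC and changed by -1.23 (adjusted p = 0.00148) with SKP2-siRNA1 and 0.02 with SKP2-siRNA2. SESN2, which encodes the stress-inducible sestrin, fell by 0.21 on the log2 scale with SKP2-siRNA1 and rose by 0.41 with SKP2-siRNA2, and the transcription factor gene ATF3 stood at -0.03 and -0.31, the latter called. Between the siRNAs, 4 of the 8 were higher with SKP2-siRNA2, namely DDIT3 (0.33, adjusted p = 0.00831), SESN2 (0.62, adjusted p = 5.03e-06), ASNS (1.246, adjusted p = 0.00114) and CHAC1 (1.40, adjusted p = 0.00526), which encodes a glutathione-degrading enzyme. ATF3 was lower (-0.28, adjusted p = 0.0249), and the median of the 8 was 0.39. The counts of this arm moved with single libraries. The number lower with SKP2-siRNA1 was 1 without SKP2-siRNA1 replicate 2 or 3, 4 without NC replicate 1 or SKP2-siRNA2 replicate 3, and 6 without both of those libraries. It was also 4 with DESeq2, with a filter of 1 CPM in at least 3 libraries and when only the groups compared were fitted. The number higher with SKP2-siRNA2 was 2 without SKP2-siRNA2 replicate 1 or with DESeq2 and 3 without NC replicate 1, alone or with SKP2-siRNA2 replicate 3. The number lower with SKP2-siRNA2 was 0 without NC replicate 3 or SKP2-siRNA2 replicate 2. It was 2 without NC replicate 1 or SKP2-siRNA2 replicate 1, and 3 without the low-end pair. Between the siRNAs, the call on ATF3 was lost without SKP2-siRNA1 replicate 1 or 2 or SKP2-siRNA2 replicate 2.

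Of 21 further degradation factors, 6 rose and 6 fell with SKP2-siRNA1 and 4 rose and 7 fell with SKP2-siRNA2. In either direction these are 57.1% and 52.4% of the 21, beside 45.5% and 49.4% of all genes tested. The ubiquitin-conjugating enzyme gene UBE2G2 rose with both (0.77 and 1.00), and the ligase gene MARCHF6 fell with both (-0.16 and -0.91). UBE2J1, the conjugating enzyme of the HRD1 complex, fell with SKP2-siRNA2 (-0.87) and stood at -0.07 with SKP2-siRNA1. Without NC replicate 1, 3 of these factors rose with SKP2-siRNA1. Of 25 further folding factors, 11 rose and 3 fell with SKP2-siRNA1 and 8 rose and 7 fell with SKP2-siRNA2. In either direction these are 14 and 15 of the 25, beside 45.5% and 49.4% of all genes tested. The number of folding factors higher with SKP2-siRNA1 was 6 when only NC and SKP2-siRNA1 were fitted. The selenoprotein gene SELENOF changed by -0.67 and 0.19, the prolyl isomerase gene FKBP7 by 0.48 and -0.36, and DNAJC10, an ER disulfide reductase, by 0.17 and -0.46, each called in both. Without SKP2-siRNA2 replicate 1, 4 folding factors rose with SKP2-siRNA2. Of 17 further genes of translocation and signal peptide cleavage, 5 rose and 3 fell with SKP2-siRNA1 (47.1% called). With SKP2-siRNA2, 6 rose and 4 fell (58.8% called). SSR3, a subunit of the translocon-associated complex, fell by 1.14 on the log2 scale with SKP2-siRNA2 (-0.09 with SKP2-siRNA1, not called). SRPRA, the receptor of the signal recognition particle, rose with both (0.35 and 0.60), and CCDC47, a translocon-associated factor, fell with both (-0.54 and -0.36). Without SKP2-siRNA1 replicate 1 or 3, 3 genes of this list rose with SKP2-siRNA1.

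Of 6 ER-phagy receptors, whose products deliver ER fragments to lysosomes, 3 rose and 2 fell with SKP2-siRNA1 and 1 rose and 1 fell with SKP2-siRNA2. In either direction these are 83.3% and 33.3% of the 6, beside 45.5% and 49.4% of all genes tested. RTN3 fell with both (-0.58 and -0.97) and TEX264 rose with both (0.41 and 0.40), while CALCOCO1 rose with SKP2-siRNA1 (0.44) and stood at -0.03 with SKP2-siRNA2. Of 18 ER exit and retrieval genes, SKP2-siRNA1 raised 9 and lowered 3 (66.7% called), and SKP2-siRNA2 raised 10 and lowered 5 (83.3% called). The COPII coat gene SEC24A rose with both (0.78 and 0.84). Its partner SEC23A rose slightly with SKP2-siRNA1 (0.17) and fell with SKP2-siRNA2 (-0.90), and SAR1A, the GTPase that starts the coat, fell with SKP2-siRNA1 (-0.74) and stood at 0.15 with SKP2-siRNA2.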

How the data were processed

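The 9 RNA libraries were prepared from total RNA by standard Illumina protocols, per the labels' protocols. The files deposited by the authors hold raw read counts per Ensembl gene; the submitters' processing notes name STAR, HTSeq (0.6.1), DESeq2 (1.16.1), FastQC (0.11.2) and Trim Galore (0.4.1), without their settings. The genome build, the annotation and the use of strand are not given in the sources used here. Reads in no gene or in several genes (9.27% to 9.79% per library) were left out. Libraries held 35476410 to 49855113 gene counts. Counting error weighs most on rare transcripts such as DERL3, and also on SDF2L1, with 147 to 259 counts per library.

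Counts were scaled by the trimmed mean of M values and genes kept by edgeR's filterByExpr (minimum count 10, minimum total 15), leaving 16575. The quasi-likelihood test was fitted to all 9 libraries with group as the only factor (edgeR 4.0.16, limma 3.58.1, R 4.3.3) and checked on simulated counts; p-values are two-sided. CPM values use the scaled library sizes. Coordinates and exon lengths come from GENCODE 29 (GRCh38) by gene ID, and promoters from RefSeq. Alternatives were other scaling, filters, DESeq2 1.42.0, a replicate block, fewer groups and left-out libraries. The members and lists were chosen with earlier results of these data known. Values in every library are given for HSPA5, the 3 sensors, XBP1 and the 3 called members of each role with the largest change, and from each further list up to 3 called genes with the largest change are named.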

Additional observations from a re-analysis of the deposited data

Results flagged for a closer look

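HERPUD1, SEL1L, OS9 and SEC61A1 were each called on opposite sides of the same NC libraries with the 2 siRNAs, as were 6.64% of all 16575 genes tested. The log2 difference, SKP2-siRNA2 minus SKP2-siRNA1, was -0.81 for HERPUD1, -0.64 for SEL1L and -0.51 for OS9. It was 0.84 for SEC61A1, the channel subunit of the translocon. Because these members were picked for calls on opposite sides of NC, a difference between the siRNAs follows from the choice, and the values are a description. Other genes of the HRD1 complex did not split in this way: SYVN1 and ERLEC1 were called with neither siRNA and DERL1 fell with both. The calls on each side of NC held for these 4 members in every one of the 17 alternatives run.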

How the results depend on the processing

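Counts of called members stayed within 1.5 times of those reported under all 17 alternatives. With SKP2-siRNA1 they ran from 9 to 14 higher and 5 to 9 lower, with SKP2-siRNA2 from 8 to 11 and 9 to 14, and between the siRNAs from 10 to 14 and 15 to 16. The labels do not state whether equal replicate numbers share a culture or day, and no pairing by number was visible in the counts. Deviations of same-numbered libraries correlated between -0.498 and 0.055, and NC replicate 1 correlated best with SKP2-siRNA2 replicate 3 (0.502). With a replicate block the counts were 10 and 7, 8 and 11, and 12 and 16, the same as with DESeq2. Of the called members, 14 of 18, 16 of 20 and 25 of 28 kept their call in every alternative, and 5 of 17, 7 of 15 and 3 of 7 uncalled ones gained one in some. No called change reversed; 57 uncalled values of 15 member comparisons changed sign, none with a reported log2 change above 0.107. Of 1632 counts for lists and promoter groups, 1546 stayed within 1.5 times of the reported count. Fitting only NC and SKP2-siRNA1 moved the split of all called genes from 4150 higher and 3398 lower to 3341 and 4255, with 6 in place of 11 further folding factors and 2 in place of 6 degradation factors higher. Without NC replicate 3, 2 disulfide genes rose with SKP2-siRNA1. Changes of about 0.15 or less on the log2 scale are near the limit of 3 libraries a group, where the SE of most members is near 0.05.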
